A study of Mus musculus with 68 samples.

Results

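The 9 genes Pck1, Fbp1, Tat, Slc2a2, Pklr, Pfkfb1, Pfkfb3, Ppargc1a and Foxo1 control whether the liver and kidney make glucose or burn it. They were picked by symbol from the 56748 genes of a count table, and 1 entry matched each symbol. RNA of 4 organs was sequenced in female wild-type C57BL/6J mice aged 10 weeks. Egf groups received 1 mg/kg of Egf, a ligand of the receptor Egfr, in phosphate-buffered saline by retro-orbital injection under isoflurane, and organs were frozen 2 h or 6 h later. Vehicle groups received the saline alone by the same route, and untreated mice had no injection. All groups were fed freely, and the labels give no glucose, insulin or feeding measurement. Each organ had 4 Egf and 3 vehicle libraries per time and 3 untreated libraries, which makes 17 per organ and 68 in all.

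Gluconeogenesis is the making of new glucose from lactate, glycerol and amino acids, and it runs in hepatocytes and in the proximal tubule of the kidney. Glucagon and glucocorticoids raise the transcription of its enzymes through cyclic AMP, the coactivator PGC-1α and forkhead factors, and insulin lowers it through Akt. Glycolysis runs the other way, and its flux in liver is set by pyruvate kinase and by the bifunctional enzymes that make and break fructose 2,6-bisphosphate.

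Library totals ran from 13271813 to 24972005 counted reads, and all 9 genes passed the filter on low counts in every organ. Levels are CPM, counts relative to the scaled total of their library within each organ's fit, and changes are log2 ratios with their standard error (SE) from edgeR's quasi-likelihood test. Adjusted p values are by Benjamini-Hochberg over all genes tested in the organ, and a gene counts as called when this p is under 0.05. The labels do not say which organs came from the same mouse, and p values measure the spread between these libraries. All 10 hepatocyte markers were detected in every liver library and all 6 proximal tubule markers in every kidney library. In lung and heart the hepatocyte markers varied widely between libraries, as given beside the results there. The second vehicle library of liver at 2 h stood apart. The 18S ribosomal RNA took 0.0126% of its counts, against 0.537% to 3.69% in the other 67 libraries, so the liver results that rest on it are also given without it. The first Egf library of liver at 2 h also stood apart, with an adrenal marker sum of 122 CPM, against 0.658, 0.680 and 1.11 CPM in the other 3. Of these 6 markers Star was detected in every liver library, and the other 5 were at 0 in 14 to 16 of the 17. In whole organs, fewer cells of a type and less RNA per cell cannot be told apart.

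In liver at 2 h after Egf, the transcripts of Pck1, Tat and Ppargc1a were lower than after vehicle and that of Pfkfb3 was higher. Of the 9 genes 3 were called lower and 1 higher, where 3.92% of all 13592 genes were called, 1.97% lower and 1.95% higher. The 9 genes were chosen with earlier results of these data known, so these shares are no test of the 9 as a set. The median change over the 9 genes was -0.17, against -0.02 over all genes tested. Fbp1, Slc2a2, Pklr and Pfkfb1, the other enzymes and the transporter, had changes between -0.17 and 0.10 and were not called.

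Neutrophil markers were higher after Egf than after vehicle at 2 h. Their sum was 2.21 to 8.01 CPM in Egf livers and 0.712 to 1.96 CPM in vehicle livers. Of the 5 markers S100a8 was detected in every liver library, S100a9 and Retnlg were each at 0 in 1 of them, Mmp8 in 8 and Cxcr2 in 9. The Egf sums also lay above all vehicle sums at 2 h in the other organs. They were 1.19 to 2.38 CPM in Egf kidneys against 0.340 to 0.668 CPM in vehicle kidneys, 109.7 to 243 CPM in Egf lungs against 66.7 to 107 CPM in vehicle lungs, and 2.32 to 7.95 CPM in Egf hearts against 0.383 to 1.42 CPM in vehicle hearts. Untreated sums lay below all of these Egf sums in liver (0.730 to 1.65 CPM), kidney (0.201 to 1.05 CPM) and lung (55.3 to 99.1 CPM). In untreated hearts they were 0.312 to 8.38 CPM, which spans the Egf hearts. The part of these cells in the results was not tested. Without the Egf liver with high adrenal markers the same 4 of the 9 genes were called, with changes of -2.47 ± 0.37 for Pck1, -1.87 ± 0.24 for Tat, -1.97 ± 0.30 for Ppargc1a and 0.91 ± 0.23 for Pfkfb3.

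Pck1 encodes the cytosolic phosphoenolpyruvate carboxykinase, the entry enzyme of gluconeogenesis. It lies at chr2:172994841-173001066 on the plus strand of mm39. It had 260.3, 270.2, 373 and 206 CPM in the Egf livers at 2 h, against 1456, 1448 and 1808 CPM in the vehicle livers. The highest Egf liver was far below the lowest vehicle liver, so the groups did not overlap. Pck1 fell 5.66-fold, a log2 change of -2.50 ± 0.32 with edgeR adjusted p = 1.18e-04. Without the vehicle library with little 18S RNA the change was -2.54 ± 0.35. Fbp1 encodes fructose-1,6-bisphosphatase, which removes a phosphate later in the same pathway. It had 1137, 1081, 1525 and 1394 CPM in Egf livers and 1257, 1524 and 1313 CPM in vehicle livers. These values overlapped, and the change of -0.09 ± 0.19 had edgeR adjusted p = 0.894.

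Tat encodes tyrosine aminotransferase, a glucocorticoid-induced enzyme that feeds tyrosine carbon into fuel metabolism. The gene is at chr8:110717069-110726435, plus strand. Its level was 591, 432, 539.6 and 447 CPM in the Egf livers at 2 h, against 1266, 2197 and 1741 CPM in the vehicle livers. Every Egf liver was lower than every vehicle liver. The fall was 3.45-fold, or -1.79 ± 0.22 on the log2 scale, with edgeR adjusted p = 5.82e-05. The vehicle library with little 18S RNA had the highest Tat value of that group, and without it the change was -1.56 ± 0.23 with edgeR adjusted p = 6.70e-04.

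The glucose transporter Glut2, encoded by Slc2a2, lets glucose pass the hepatocyte membrane in both directions. Slc2a2 had 372, 344, 389 and 449 CPM in Egf livers at 2 h and 438, 253 and 449 CPM in vehicle livers, with overlapping ranges. Pklr encodes the liver form of pyruvate kinase, the last enzyme of glycolysis. Pklr had 129.7, 102, 152 and 214 CPM in Egf livers and 258, 69.1 and 177 CPM in vehicle livers. The lowest Slc2a2 and the lowest Pklr value of the vehicle livers were both in the library with little 18S RNA. Neither gene was called, with a change of 0.03 ± 0.18 for Slc2a2 (edgeR adjusted p = 0.963) and -0.17 ± 0.33 for Pklr (0.881). Without that library the changes were -0.17 ± 0.15 for Slc2a2 (edgeR adjusted p = 0.66) and -0.53 ± 0.26 for Pklr (0.376), still not called.

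Pfkfb1 and Pfkfb3 encode bifunctional enzymes that set the level of fructose 2,6-bisphosphate, the activator of phosphofructokinase. Pfkfb1 is the liver form, and Pfkfb3 is an inducible form with high kinase activity. Pfkfb3 (chr2:11476244-11558888, minus strand) had 12.5, 13.3, 15.4 and 15.8 CPM in the Egf livers, against 8.32, 5.36 and 10.1 CPM in the vehicle livers. All Egf livers were above all vehicle livers, and Pfkfb3 rose 1.80-fold, a log2 change of 0.85 ± 0.21 with edgeR adjusted p = 0.0263. The lowest vehicle value was in the library with little 18S RNA, and without that library the change was 0.65 ± 0.21 and no longer called, with edgeR adjusted p = 0.126. The edgeR adjusted p of Pfkfb3 was also past 0.05 without the third Egf library (0.0572), the fourth Egf library (0.0752) or the first vehicle library (0.0748). Pfkfb1 had 25.02, 12.4, 17.8 and 19.9 CPM in Egf livers and 23.04, 12.8 and 16.6 CPM in vehicle livers. Its ranges overlapped almost fully, and its edgeR adjusted p was 0.907.

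Ppargc1a encodes PGC-1α, a coactivator that drives the gluconeogenic genes in fasting. It lies at chr5:51611592-51725068 on the minus strand. Ppargc1a had 1.59, 2.24, 2.52 and 1.63 CPM in the Egf livers at 2 h, against 9.90, 5.24 and 9.98 CPM in the vehicle livers. The groups did not overlap, and it fell 4.18-fold, a log2 change of -2.06 ± 0.27 with edgeR adjusted p = 1.35e-04. Here the vehicle library with little 18S RNA was the lowest of its group, and without it the change was -2.29 ± 0.27. Foxo1 encodes a forkhead factor that insulin signalling expels from the nucleus. Foxo1 had 26.7, 20.7, 28.9 and 23.4 CPM in Egf livers and 30.4, 33.6 and 43.4 CPM in vehicle livers. No Egf liver reached the lowest vehicle liver, but its change of -0.52 ± 0.16 was not called, with edgeR adjusted p = 0.086, and limma voom gave adjusted p = 0.0228. Without the library with little 18S RNA the change of Foxo1 was -0.55 ± 0.19 (edgeR adjusted p = 0.15).

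**Figure D1:**
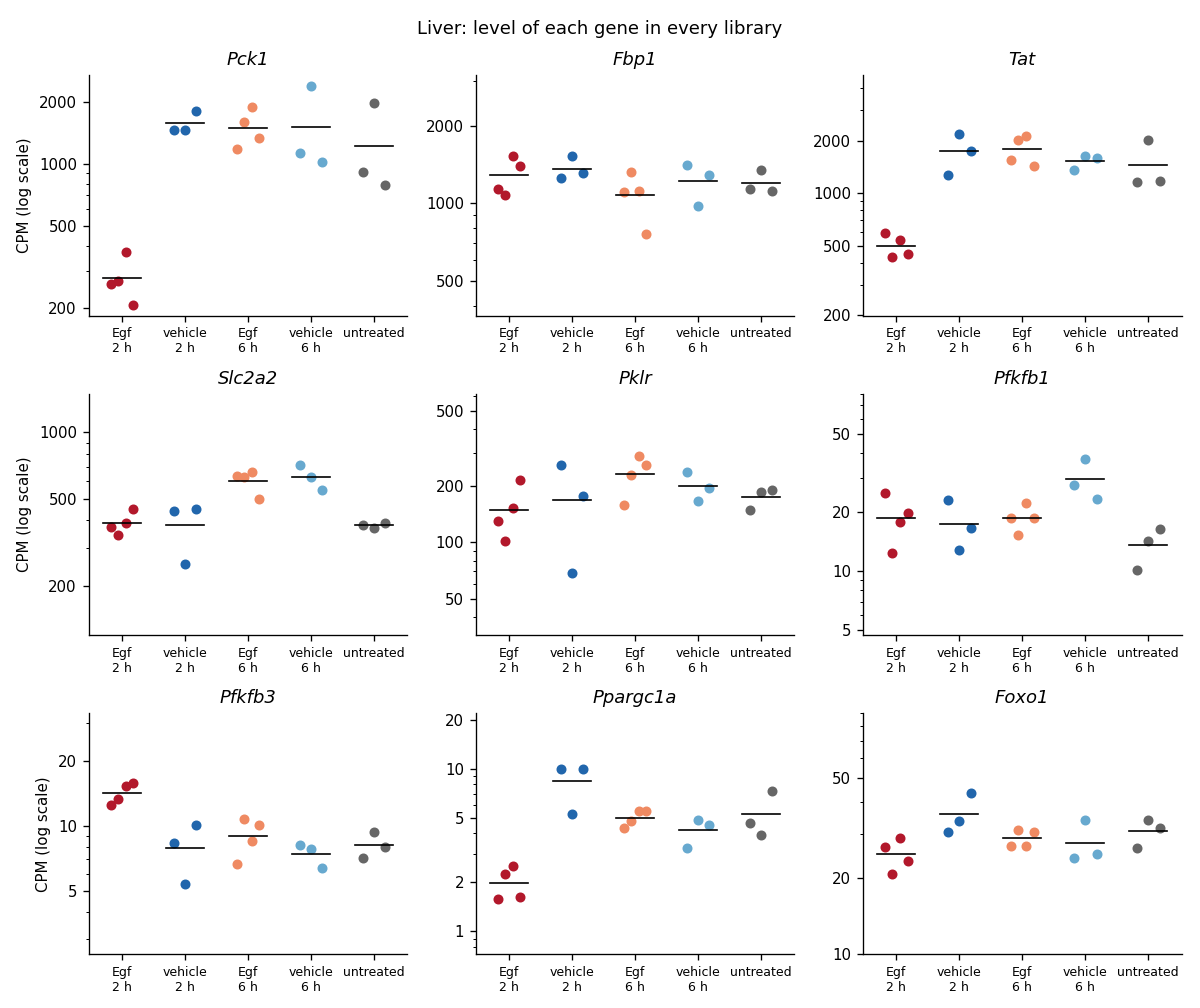
Level of each of the 9 genes in every liver library, in CPM on a log scale, by group (points are libraries, lines are group means). The 4 Egf livers at 2 h lie below all other livers for Pck1, Tat and Ppargc1a and above all others for Pfkfb3.

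The promoters of the 4 called genes are shown because the genes changed in the same tissue at the same time. They run from 250 bases before to 50 bases after the start site, as RefSeq gives them on GRCm38.p6, an older build than that of the counts, and all 9 genes matched. Capitals mark the cyclic AMP response element core site TGACG or its reverse complement CGTCA.
Pck1 (chr2:173152823-173153122, plus strand): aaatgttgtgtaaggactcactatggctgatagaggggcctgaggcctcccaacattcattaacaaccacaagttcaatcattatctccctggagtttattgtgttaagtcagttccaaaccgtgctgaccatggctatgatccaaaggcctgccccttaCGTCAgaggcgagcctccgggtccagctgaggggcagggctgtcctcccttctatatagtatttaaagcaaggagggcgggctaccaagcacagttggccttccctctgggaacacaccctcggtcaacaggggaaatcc
Tat (chr8:109990186-109990485, plus strand): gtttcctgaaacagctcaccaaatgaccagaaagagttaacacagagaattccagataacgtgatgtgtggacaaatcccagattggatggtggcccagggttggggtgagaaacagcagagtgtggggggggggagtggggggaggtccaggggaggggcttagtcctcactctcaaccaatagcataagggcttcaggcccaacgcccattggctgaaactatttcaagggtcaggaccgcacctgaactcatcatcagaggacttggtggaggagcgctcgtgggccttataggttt
Ppargc1a (chr5:51567676-51567975, minus strand): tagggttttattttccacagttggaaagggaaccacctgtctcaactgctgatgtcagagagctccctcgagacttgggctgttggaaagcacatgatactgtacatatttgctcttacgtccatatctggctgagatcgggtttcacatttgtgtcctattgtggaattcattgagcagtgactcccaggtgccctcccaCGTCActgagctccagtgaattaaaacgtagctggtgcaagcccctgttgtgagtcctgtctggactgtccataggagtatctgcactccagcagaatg
Pfkfb3, first start (chr2:11502041-11502340, minus strand): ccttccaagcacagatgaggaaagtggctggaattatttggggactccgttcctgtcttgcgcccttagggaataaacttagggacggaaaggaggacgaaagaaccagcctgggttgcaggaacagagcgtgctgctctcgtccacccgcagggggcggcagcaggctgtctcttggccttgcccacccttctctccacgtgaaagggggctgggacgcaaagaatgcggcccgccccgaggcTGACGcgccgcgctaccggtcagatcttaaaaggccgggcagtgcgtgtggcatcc
Pfkfb3, second start (chr2:11553880-11554179, minus strand): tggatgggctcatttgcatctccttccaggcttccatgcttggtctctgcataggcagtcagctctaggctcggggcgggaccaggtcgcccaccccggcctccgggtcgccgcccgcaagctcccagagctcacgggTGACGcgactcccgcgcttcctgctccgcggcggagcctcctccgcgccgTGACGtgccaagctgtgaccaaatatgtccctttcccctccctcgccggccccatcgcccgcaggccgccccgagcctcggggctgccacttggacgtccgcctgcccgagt
The core site lay at -90 to -86 from the start in Pck1 and at -49 to -45 in Ppargc1a, as CGTCA in both. Pfkfb3 held TGACG at -6 to -2 of its first start and at -112 to -108 and -62 to -58 of its second. The Tat window held none, and neither did the windows of the other 5 genes. On both strands, 20.8% of all 32851 promoters of this length hold the core site. The E-box CACGTG, not capitalised above, stood at -53 to -48 in the first Pfkfb3 window and is found in 7.15% of promoters. The forkhead core GTAAACA (3.65% of promoters), the glucocorticoid core site TGTTCT (19.0%) and the AP-1 motif TGANTCA (7.81%) occurred in none of the 14 windows of the 9 genes. No overlap between motifs was found in them. These matches describe letters in a short window and no binding was measured.

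By 6 h the Egf livers no longer differed from the vehicle livers in a called way for any of the 9 genes, with 0.0883% of all genes called by edgeR and 1160 of 13592 at an unadjusted p under 0.05. DESeq2 and limma voom also called 0 of the 9. Pck1 had 1182, 1587, 1874 and 1329 CPM in Egf livers at 6 h, against 1123, 2388 and 1023 CPM in vehicle livers. Tat had 1546, 2023, 2135 and 1434 CPM in Egf livers and 1356, 1631 and 1597 CPM in vehicle livers. Ppargc1a had 4.29, 4.76, 5.48 and 5.46 CPM in Egf livers and 3.24, 4.85 and 4.49 CPM in vehicle livers. For all 3 genes the Egf and vehicle ranges at 6 h overlapped. The Egf effect at 6 h minus that at 2 h was 2.48 ± 0.45 for Pck1, 2.01 ± 0.31 for Tat and 2.32 ± 0.39 for Ppargc1a. All 3 differences were called by edgeR, with adjusted p = 0.00781, 0.00223 and 0.00388, where 1.03% of all genes were called. Without the vehicle library with little 18S RNA they were 2.53 ± 0.49, 1.79 ± 0.31 and 2.56 ± 0.37, with edgeR adjusted p = 0.0152, 0.00748 and 0.00157. For Pfkfb3 the difference was -0.57 ± 0.30 and was not called (edgeR adjusted p = 0.399). Pfkfb1 had 18.6, 15.4, 22.3 and 18.7 CPM in Egf livers, against 27.4, 37.5 and 23.4 CPM in vehicle livers. Its groups did not overlap, but its change of -0.65 ± 0.24 was not called (edgeR adjusted p = 0.47).

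Livers of untreated mice gave a second reference for the same Egf libraries, so the following values are not independent of those above. Against untreated livers, the Egf livers at 2 h had lower Pck1 (-2.14 ± 0.32), Tat (-1.53 ± 0.22) and Ppargc1a (-1.40 ± 0.28) and higher Pfkfb3 (0.81 ± 0.21). The edgeR adjusted p was 1.91e-04 for Pck1, 1.21e-04 for Tat, 0.00167 for Ppargc1a and 0.0121 for Pfkfb3. These 4 of 9 stand beside 24.1% of all genes called in that comparison. Untreated livers had 907, 1966 and 786 CPM of Pck1, 1165, 2006 and 1171 CPM of Tat and 4.61, 3.91 and 7.32 CPM of Ppargc1a. All of these were above the Egf livers at 2 h. Pfkfb3 had 7.08, 9.34 and 8.01 CPM in untreated livers, below all 4 Egf livers, and its call was lost without the first untreated library (edgeR adjusted p = 0.0518).

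Vehicle livers were also compared with untreated livers. The parts of the saline, the injection and the isoflurane cannot be told apart in this comparison. At 2 h none of the 9 genes was called by edgeR (0.155% of all genes called, 2256 at an unadjusted p under 0.05) and DESeq2 called 0. The largest of these differences was that of Ppargc1a, 0.66 ± 0.28 with edgeR adjusted p = 0.269. Without the vehicle library with little 18S RNA it was 0.89 ± 0.28, with edgeR adjusted p = 0.461. Limma voom, which weights libraries by quality, called it at 0.94 ± 0.22 with adjusted p = 0.0275. In that comparison limma voom called 541 of all 13592 genes. At 6 h edgeR again called 0 of 9 (0.67% of all genes, 1745 at an unadjusted p under 0.05), but Pfkfb1 and Slc2a2 came close and DESeq2 called both. DESeq2 called 285 of all 13592 genes at 6 h.

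Slc2a2 did not overlap with its untreated values at 6 h after either injection, and edgeR called it after Egf. It had 634, 628, 659 and 499 CPM in the Egf livers at 6 h and 710.5, 630.3 and 545 CPM in the vehicle livers at 6 h, against 381, 367 and 388 CPM in untreated livers. No liver of the 6 h groups was as low as any untreated liver. The log2 change over untreated livers was 0.68 ± 0.18 after Egf (edgeR adjusted p = 0.0398) and 0.73 ± 0.19 after vehicle (0.0909). After Egf it was 1 of 9 genes called, beside 3.89% of all genes. That call was lost in a fit of only the compared groups (edgeR adjusted p = 0.0804), and when any 1 of 6 of the 7 libraries was left out, all but the fourth Egf library. DESeq2 gave adjusted p = 0.00464 after Egf and 0.00963 after vehicle. Pfkfb1 had 10.1, 14.3 and 16.5 CPM in untreated livers, below all 3 vehicle livers at 6 h. Its log2 change after vehicle was 1.11 ± 0.26, with adjusted p = 0.0575 by edgeR and 0.00562 by DESeq2. The 6 h and untreated livers were taken at hours that the labels do not give, and the part of the hour or of feeding in these differences was not tested.

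Around the 9 genes, 137 other genes of glucose and amino acid metabolism were listed, and 132 of them were tested in liver. At 2 h after Egf 4 rose and 3 fell, a share near the 3.92% called among all genes, and the median change was -0.12. None of 16 gluconeogenic enzymes was called. G6pc, the glucose-6-phosphatase that releases glucose, had 460.1 ± 179 CPM (SD, n = 4) in Egf livers and 417 ± 163 CPM (n = 3) in vehicle livers, with edgeR adjusted p = 0.931. Of 19 glycolytic enzymes 1 rose, the aldolase gene Aldoa, with 134 ± 15.6 CPM in Egf livers and 84.6 ± 12.8 CPM in vehicle livers (log2 change 0.67 ± 0.13). Of 9 genes that control pyruvate dehydrogenase, its phosphatase genes moved apart: Pdp1 rose by 1.03 ± 0.28 and Pdp2 had a change of -0.86 ± 0.23.

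Of 24 transcription regulators 2 rose and 1 fell. Foxa2, a pioneer factor of hepatocytes, rose by 0.89 ± 0.15, and Cebpb, which binds gluconeogenic promoters, rose by 1.22 ± 0.21. Klf15, a glucocorticoid-induced factor that drives amino acid breakdown, had 35.5 ± 2.76 CPM in Egf livers and 119.6 ± 24.05 CPM in vehicle livers, a change of -1.75 ± 0.16. Their Egf effects at 6 h differed from those at 2 h by -1.31 ± 0.21 for Foxa2, -1.43 ± 0.29 for Cebpb and 1.59 ± 0.22 for Klf15, all called by edgeR. Of 22 hormone signalling genes 1 fell, Pde4b, a phosphodiesterase that degrades cyclic AMP, with a change of -1.10 ± 0.22. None of 9 glucose transporters, 12 glycogen genes and 21 genes of amino acid breakdown was called. Without the vehicle library with little 18S RNA 3 of the 132 rose and 4 fell, with Pdp1 no longer called (1.12 ± 0.34, edgeR adjusted p = 0.0878) and Srebf1 called (-0.85 ± 0.22). Without the Egf library with high adrenal markers 4 rose and 2 fell, with Pdp1 (edgeR adjusted p = 0.0726) and Pdp2 (0.12) no longer called and Pdk4 called (1.55 ± 0.35). Both settings were chosen after seeing the data.

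Against untreated livers, 8 of the 132 rose and 20 fell in the Egf livers at 2 h, where 24.1% of all genes were called. The gluconeogenic enzymes Pck2 (-0.61 ± 0.20) and G6pc3 (-0.67 ± 0.23), both low in liver, were lower. Aldoa rose by 0.76 ± 0.13, and Tigar, a fructose bisphosphatase that lowers glycolysis, had a change of -1.02 ± 0.19. Among the 24 regulators 5 rose and 7 fell, and the smallest p values were those of Klf15 (-1.86 ± 0.16), Foxa2 (1.45 ± 0.16), the lipogenic factor Srebf1 (-1.67 ± 0.23) and the CREB coactivator Crtc2 (-0.87 ± 0.17). Pdp1 (1.17 ± 0.28) and Pdp2 (-1.09 ± 0.23) again moved apart. In hormone signalling 1 rose and 5 fell, led by Pde4b (-1.23 ± 0.21), Pde4d (-1.45 ± 0.32), the insulin receptor gene Insr (-0.94 ± 0.22) and Trib3 (-1.48 ± 0.37). Of 12 glycogen genes 3 were lower, Gys1 (-1.53 ± 0.41), Ppp1r3c (-1.02 ± 0.27) and Ppp1r3b (-0.98 ± 0.27), and of 21 amino acid genes 1, Uroc1 (-0.66 ± 0.19).

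At 6 h after vehicle, Slc37a4, which carries glucose 6-phosphate to the enzyme of G6pc, had 393 ± 92.2 CPM against 164 ± 17.8 CPM in untreated livers, a rise of 1.26 ± 0.21 (edgeR adjusted p = 0.00825). Pdhb rose by 0.65 ± 0.14, and Nr0b2 (-1.45 ± 0.31) and Ppp1r3c (-1.63 ± 0.30) were lower, so 2 of the 132 rose and 2 fell, where 0.67% of all genes were called. At 6 h after Egf, 3 of the 132 rose over untreated livers and 5 fell, where 3.89% of all genes were called. Slc37a4 (1.12 ± 0.20), Mlx (0.80 ± 0.16) and Pdhb (0.56 ± 0.14) were higher. The phosphofructokinase genes Pfkl (-0.62 ± 0.13) and Pfkm (-0.81 ± 0.21), Ppp1r3c (-1.25 ± 0.27), Hal (-0.88 ± 0.20) and Adra1b (-0.55 ± 0.15) were lower.

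The genes most like each called gene were found among 11800 genes of at least 1 CPM in liver, by the root mean square difference of centred log2 CPM over the 17 liver libraries. Those nearest to Pck1 were Stbd1 (difference 0.40), Tat (0.43) and Gnpda1 (0.45). Those nearest to Tat were Klf15 (0.25), Stbd1 (0.32) and Gnpda1 (0.32), so Stbd1 and Gnpda1 stood near both. The 3 nearest to Ppargc1a were 2900026A02Rik (0.34), Zmynd8 (0.38) and Spg20 (0.39), and those nearest to Pfkfb3 were Tfe3 (0.22), Tpm4 (0.23) and Tut1 (0.23).

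In kidney, the other organ that makes glucose, none of the 9 genes was called in any of the 7 comparisons by edgeR. At 2 h after Egf 0.256% of all 15654 genes were called and 1224 had an unadjusted p under 0.05, and DESeq2 and limma voom also called 0 of the 9. Pck1 had 2329, 3116, 2546 and 1857 CPM in Egf kidneys, against 2299, 1031 and 2758 CPM in vehicle kidneys. The ranges overlapped, and its change was 0.28 ± 0.25 with edgeR adjusted p = 0.938. Ppargc1a had 55.9, 68.7, 37.6 and 41.1 CPM in Egf kidneys and 89.5, 51.1 and 70.6 CPM in vehicle kidneys, a change of -0.47 ± 0.19 with edgeR adjusted p = 0.517. Here too the ranges overlapped. Fbp1 had 1346, 1261, 1291 and 1333 CPM in Egf kidneys, against 1234, 1153 and 1495 CPM in vehicle kidneys, and a change of 0.02 ± 0.09. Slc2a2 (-0.12 ± 0.10), Pklr (-0.13 ± 0.17), Pfkfb3 (-0.16 ± 0.16) and Foxo1 (0.08 ± 0.15) also had small changes, with overlapping ranges. Pfkfb1, the liver form, was under 1 CPM in all 7 of these libraries. The adrenal marker sum was 2.04 to 46.8 CPM in Egf kidneys at 2 h, with a median of 16.9 CPM. It was 1.37 to 2.10 CPM in vehicle kidneys at 2 h and 1.78 to 2.72 CPM in untreated kidneys. Of its 6 markers 1, Star, was detected in every kidney library. The part of adrenal RNA in the kidney results was not tested.

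**Figure D2:**
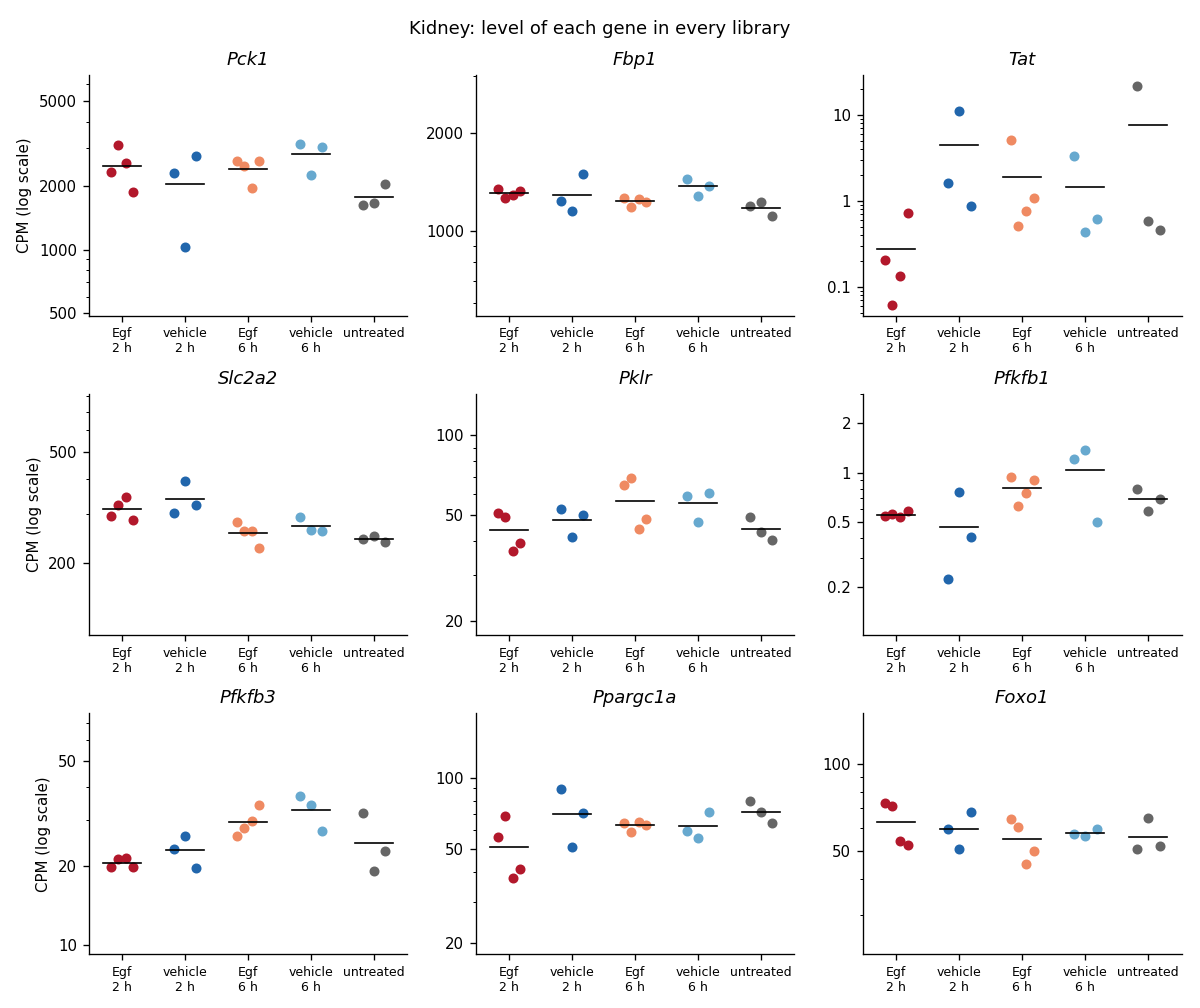
Level of each of the 9 genes in every kidney library, in CPM on a log scale, by group (points are libraries, lines are group means). Egf and vehicle kidneys of the same time overlap for Pck1, Ppargc1a and Pfkfb3, and Tat spreads most within groups.

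At 6 h the kidney values of Pck1 and Ppargc1a again overlapped. Pck1 had 2618, 2469, 1941 and 2602 CPM in Egf kidneys and 3146, 2235 and 3044 CPM in vehicle kidneys, and Ppargc1a 64.4, 58.9, 65.1 and 63.05 CPM in Egf kidneys and 59.7, 55.5 and 71.8 CPM in vehicle kidneys. Fbp1 had 1264, 1188, 1257 and 1231 CPM in Egf kidneys, just below the 1449, 1286 and 1380.5 CPM of vehicle kidneys, and its change of -0.15 ± 0.09 had edgeR adjusted p = 0.813. Of all genes 0% were called at 6 h, with 986 at an unadjusted p under 0.05, and DESeq2 and limma voom called 0 of the 9. Against untreated kidneys the share of all genes called was 0.0256% for vehicle at 2 h, 0.211% for vehicle at 6 h, 3.8% for Egf at 2 h and 0.319% for Egf at 6 h. The difference of the Egf effect between 6 h and 2 h was called for 0.0192%. The nearest of the 9 to a call was Slc2a2. It had 296, 324, 346 and 285 CPM in Egf kidneys and 303, 394 and 324 CPM in vehicle kidneys at 2 h, against 243, 251 and 239 CPM in untreated kidneys. Every kidney of both injected groups was above every untreated kidney. Its change over untreated was 0.36 ± 0.10 after Egf (edgeR adjusted p = 0.0698) and 0.48 ± 0.11 after vehicle (0.145). DESeq2 called both, with adjusted p = 0.0132 after Egf and 0.00796 after vehicle. In these comparisons DESeq2 called 1074 and 146 of all 15654 genes.

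Tat was low in kidney, and its highest values stood beside high hepatocyte marker sums. It had 0.204, 0.0619, 0.134 and 0.713 CPM in Egf kidneys at 2 h, 1.62, 10.9 and 0.872 CPM in vehicle kidneys at 2 h and 21.6, 0.586 and 0.461 CPM in untreated kidneys. At 2 h every Egf kidney was below every vehicle kidney. The highest Tat values of kidney were in the first untreated library, the second vehicle library at 2 h and the first Egf library at 6 h (5.13 CPM). These were also the 3 kidney libraries with the highest hepatocyte marker sums, 1968, 1077 and 803 CPM. The sum was 205 to 337 CPM in Egf kidneys at 2 h and 220.2 to 1077 CPM in vehicle kidneys, and all 10 markers were detected in every kidney library. The change of Tat at 2 h was -3.96 ± 1.52 and, with the marker sum as a covariate, -1.50 ± 0.46, with edgeR adjusted p = 0.469 and 0.38. The part of hepatocyte RNA in the kidney values of Tat was not tested further.

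Of the 137 listed genes 131 were tested in kidney, and 0 were called for Egf against vehicle at 2 h or at 6 h. Against untreated kidneys 4 rose and 2 fell in the Egf kidneys at 2 h, where 3.8% of all genes were called. G6pc had 651 ± 64.1 CPM (SD, n = 4) in Egf kidneys and 376 ± 43.4 CPM (n = 3) in untreated kidneys, a rise of 0.79 ± 0.15, and Slc37a4 rose by 0.44 ± 0.10. Pdk4, the kinase that shuts off pyruvate dehydrogenase in fasting, rose by 1.55 ± 0.40 and Cebpa by 0.43 ± 0.10. Srebf1 (-0.76 ± 0.15) and the adrenergic receptor gene Adra1b (-1.34 ± 0.28) were lower. Slc37a4 was also higher at 6 h than in untreated kidneys, by 0.57 ± 0.10 after Egf and 0.72 ± 0.11 after vehicle, and was then the 1 called gene of the lists in each.

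A single fit of all 68 libraries tested for differences in the Egf effect among organs. At 2 h Ppargc1a was the 1 called gene of the 9, with edgeR adjusted p = 5.23e-06, where 2.19% of 18736 genes were called. Its effect in liver minus that in kidney was -1.56 ± 0.31, in liver minus lung -1.84 ± 0.32 and in liver minus heart -2.33 ± 0.31. All 3 differences were called by edgeR, with adjusted p = 0.00157, 2.28e-04 and 9.37e-07. It was the 1 gene of the 9 called in each of these pairs, where 1.45% of all genes were called between liver and kidney, 1.63% between liver and lung and 2.53% between liver and heart. Heart had 54.8, 46.2, 67.7 and 55.3 CPM of Ppargc1a in Egf hearts at 2 h and 43.3, 33.1 and 61.3 CPM in vehicle hearts on that organ's scale, with overlapping ranges. Lung had 6.18, 4.72, 6.70 and 3.85 CPM in Egf lungs and 6.51, 5.22 and 6.55 CPM in vehicle lungs, which also overlapped.

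Pck1 was not called in that fit, whose spread it shares with the lung and heart libraries described next (edgeR adjusted p = 0.596). In a fit of the 34 liver and kidney libraries alone, chosen after seeing the data, the Pck1 effect in liver minus that in kidney was -2.77 ± 0.44 with edgeR adjusted p = 3.35e-04. Ppargc1a was called there too (-1.59 ± 0.34, 0.0104), while 1.3% of 16337 genes were called. Pfkfb3 had 1.01 ± 0.26 with edgeR adjusted p = 0.0502. At 6 h none of the 9 effects differed among organs in a called way, with 0.048% of all genes called and 1124 at an unadjusted p under 0.05, and DESeq2 and limma voom also called 0 of the 9. The pairs gave 0 of 9 as well, beside 0.048% of all genes between liver and kidney, 0.0961% between liver and lung and 0.0267% between liver and heart, and 0.0122% in the fit of liver and kidney alone.

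**Figure D3:**
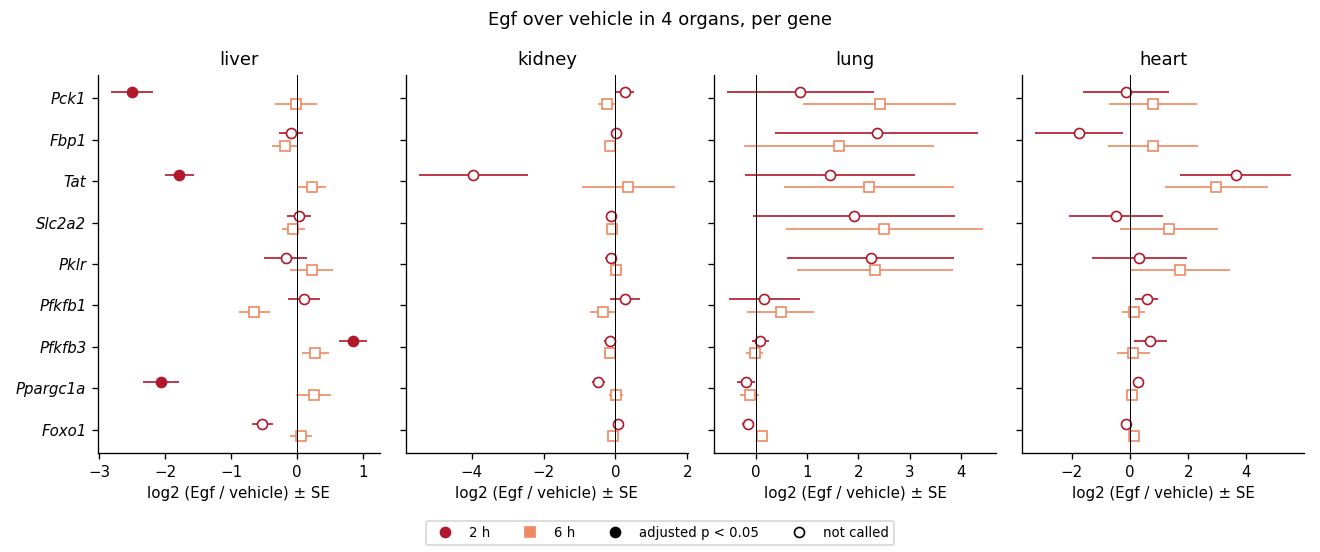
Log2 change of each gene, Egf over vehicle, in 4 organs (circles 2 h, squares 6 h, bars ± SE, filled where edgeR adjusted p is under 0.05). The filled points are Pck1, Tat, Ppargc1a and Pfkfb3 in liver at 2 h, and the widest bars are those of Pck1, Fbp1, Tat, Slc2a2 and Pklr in lung and heart and of Tat in kidney.

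In lung and heart edgeR called none of the 9 genes in any of the 8 comparisons. The shares of all genes called for Egf against vehicle were 0.84% in lung at 2 h, 0% in lung at 6 h, 0.211% in heart at 2 h and 0.0128% in heart at 6 h. At an unadjusted p under 0.05 the counts were 1423, 907, 1193 and 1647. DESeq2 called 1 value of the 9 genes in these organs, Tat in vehicle hearts at 2 h against untreated hearts (-5.90 ± 1.52, DESeq2 adjusted p = 0.0076). In that comparison DESeq2 called 526 of all 15618 genes. For vehicle against untreated, edgeR called 0.0656% of genes in lung and 0.0128% in heart at 2 h, and 0.101% in lung and 0.0192% in heart at 6 h. With the replicate number as a block, the 6 h comparison had 4 called genes in lung, against 17 without the block, and 0 in heart, against 3, with none of the 9 among them.

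The liver genes among the 9 spread widely between lung libraries of 1 group, and in Egf lungs at 6 h hepatocyte markers spread with them. Lungs at 6 h after Egf had 0.807, 0.973, 267 and 7.14 CPM of Tat, 18.4, 4.81, 527 and 25.1 CPM of Pck1 and 0.173, 0.307, 118 and 2.40 CPM of Slc2a2. The third of these libraries was far above the others for all 3 genes and also for Fbp1, Pklr and Pfkfb1. Its hepatocyte marker sum was 28993 CPM, against 55.02, 33.99 and 781 CPM in the other 3. At 2 h the sum was 438 to 3569 CPM in Egf lungs and 28.9 to 662 CPM in vehicle lungs. Tat had 9.43, 19.4, 5.16 and 22.3 CPM in Egf lungs at 2 h and 2.90, 2.72 and 9.94 CPM in vehicle lungs, and its change of 1.45 ± 1.66 became -1.11 ± 0.55 with the marker sum as a covariate. Of the 10 hepatocyte markers 6 were detected in every lung library, and Apoa1, Fgb, Serpina1c and Cps1 were at 0 in 1 to 3 of them. Untreated lungs had 2.20 to 95.9 CPM of Pck1 beside hepatocyte sums of only 23.9 to 96.2 CPM. The adipocyte marker sum of untreated lungs was 80.3 to 532 CPM. Of the 6 adipocyte markers 5 were detected in every lung library, and Ucp1 was at 0 in 5. The part of adipocyte RNA in these Pck1 values was not tested.

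Hearts held the same pattern and 2 further ones. Untreated hearts had 218, 9.79 and 124 CPM of Tat beside hepatocyte sums of 16763, 1251 and 14189.5 CPM. Vehicle hearts at 2 h had 1.15, 1.84 and 2.87 CPM of Tat, and their hepatocyte sums were 76.2 to 119 CPM. The 2 untreated hearts with high Tat were those with high sums, and all 10 markers were detected in every heart library. With the sum as a covariate the change of Tat, Egf over vehicle, was -0.92 ± 0.55 at 2 h, against 3.63 ± 1.90 without it. The first vehicle heart at 2 h had 312 CPM of Pck1, 192 CPM of Fbp1 and 41.3 CPM of Slc2a2, but 1.15 CPM of Tat. Its hepatocyte sum was 119 CPM, and its proximal tubule sum of 1421 CPM was the highest of the 17 hearts. That sum was 5.94 to 256 CPM in Egf hearts and 9.08 to 1421 CPM in vehicle hearts at 2 h. Of its 6 markers 3 were detected in every heart library, and Slc34a1, Slc5a2 and Slc22a6 were at 0 in 3 to 6 hearts. The second Egf heart at 2 h had 197 CPM of Pck1, but 1.21 CPM of Fbp1 and 1.36 CPM of Tat. Its adipocyte marker sum of 1266 CPM was the highest of the hearts, where that sum was 16.1 to 1266 CPM in Egf hearts and 5.36 to 468 CPM in vehicle hearts at 2 h. Of its 6 markers 4 were detected in every heart library, with Lep at 0 in 1 heart and Ucp1 at 0 in 2, and Pck1 also serves glycerol synthesis in adipocytes. With the proximal tubule sum as a covariate, the changes at 2 h, Egf over vehicle, were 1.12 ± 1.64 for Pck1 and -0.48 ± 1.52 for Fbp1. With the adipocyte sum as a covariate the change of Pck1 was -1.35 ± 1.73. None of these changes was called by edgeR. The part of these tissues in the values was not tested further.

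**Figure D4:**
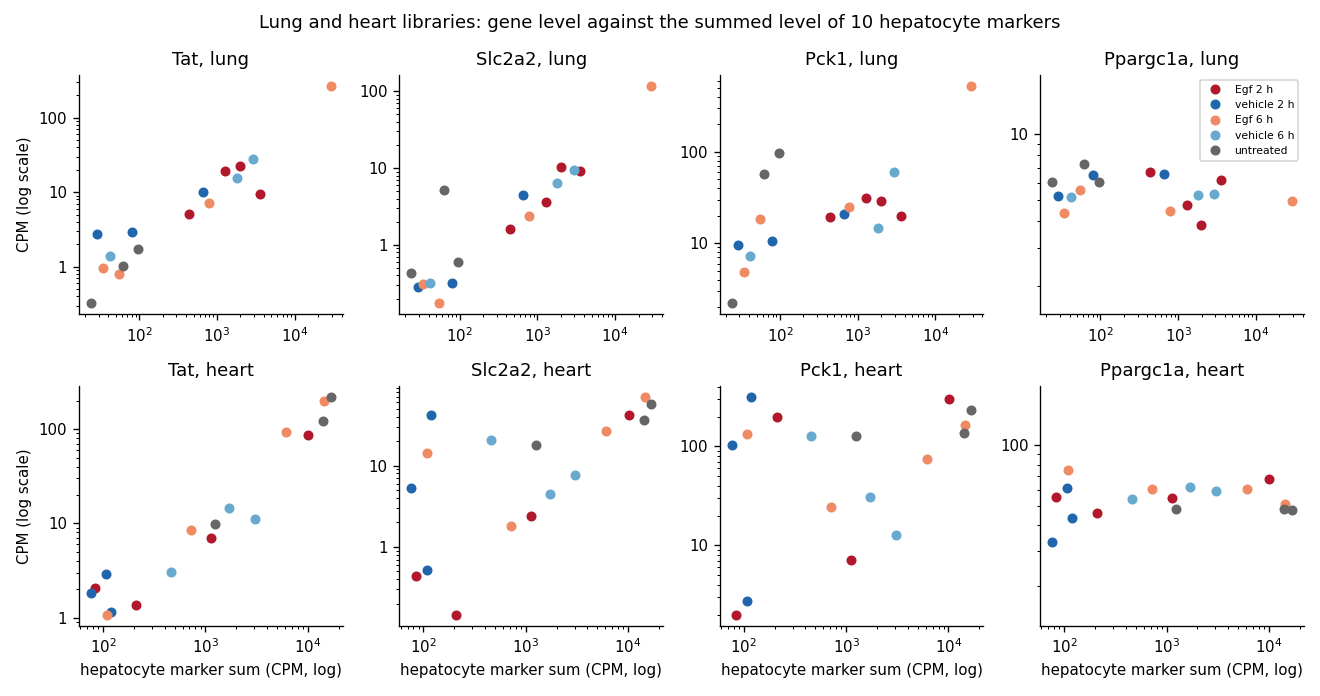
Tat, Slc2a2, Pck1 and Ppargc1a (CPM, log scale) in the 17 lung and 17 heart libraries against the summed CPM of 10 hepatocyte markers in the same library (log scale, points coloured by group). Tat is high where the sum is high in both organs, Pck1 and Slc2a2 also reach high values in hearts with a low sum, and Ppargc1a stays in a narrow band.

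Ppargc1a, Foxo1 and Pfkfb3 did not spread in this way in lung. Foxo1 had 78.3, 76.6, 75.2 and 59.4 CPM in Egf lungs at 2 h and 88.8, 86.3 and 67.2 CPM in vehicle lungs, a change of -0.16 ± 0.12. Pfkfb3 had 102, 99.2, 103 and 113 CPM in Egf lungs and 95.3, 102 and 97.1 CPM in vehicle lungs, a change of 0.09 ± 0.16. Both genes had overlapping ranges. Pklr had 4.08, 2.14, 1.60 and 6.02 CPM in Egf lungs and 0.543, 0.227 and 1.44 CPM in vehicle lungs. These lung groups did not overlap, but edgeR did not call the change of 2.24 ± 1.63 (adjusted p = 0.824). With the hepatocyte marker sum given above as a covariate it was -0.00252 ± 0.74. In heart Pfkfb3 had 6.87, 31.4, 31.2 and 11.1 CPM in Egf hearts at 2 h and 9.24, 21.8 and 6.16 CPM in vehicle hearts. The hearts with the most Pfkfb3, the second and the third Egf heart at 2 h, also had the highest adipocyte sums, 1266 and 682 CPM. The change of Pfkfb3 in heart was 0.70 ± 0.57 and, with the adipocyte sum as a covariate, 0.46 ± 0.50. Among the listed genes, 1 of 132 tested rose in lung at 2 h, where 0.84% of all genes were called. It was Trib1, a pseudokinase that lowers C/EBPα in liver, with 87.3 ± 1.74 CPM in Egf lungs and 53.5 ± 1.61 CPM in vehicle lungs (0.71 ± 0.09). Of the 136 tested in heart 0 were called at either time.

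In untreated mice all 9 genes differed among the organs, as did 90.5% of all genes tested. Between pairs of organs, edgeR called 4 of the 9 for liver against kidney (56.4% of all genes), 8 for liver against lung (71%), 8 for liver against heart (61.9%), 6 for kidney against lung (63.8%), 4 for kidney against heart (61.7%) and 8 for lung against heart (66.3%). The values that follow are CPM per kilobase of gene length (RPKM) with the standard deviation of 3 libraries, on the scale of the 68-library fit, which is not that of the CPM above. Pck1 was highest in liver (561 ± 298) and kidney (449.8 ± 61.7), which overlapped and did not differ in a called way. Heart (53.8 ± 18.6) and lung (9.76 ± 8.86) followed, and their difference was not called either (edgeR adjusted p = 0.0619). Yet heart and lung did not overlap, with 144 to 258 CPM in heart and 1.42 to 61.9 CPM in lung. Fbp1 had 1111 ± 116 in liver, 601 ± 25.7 in kidney, 73.1 ± 20.1 in heart and 3.06 ± 4.95 in lung. Neither liver and kidney (edgeR adjusted p = 0.585) nor kidney and heart (0.0529) differed in a called way. The spread in these tests was estimated over all 68 libraries. Yet the ranges did not overlap, with 1766 to 2118 CPM in liver, 974 to 1059 CPM in kidney and 87.5 to 155 CPM in heart. Tat had 951 ± 317 RPKM in liver, 53.9 ± 48.2 in heart, 2.71 ± 4.37 in kidney and 0.273 ± 0.185 in lung, and of these neighbours kidney and lung alone were not called as different. The heart values rest on libraries whose hepatocyte sums differ as given above. In untreated lungs that sum was 23.9 to 96.2 CPM. The third untreated lung had a proximal tubule marker sum of 290.1 CPM, against 62.1 and 76.4 CPM in the other 2 untreated lungs. Of its 6 markers 3 were detected in every lung library, with Slc34a1 at 0 in 3, Slc5a2 in 4 and Slc22a6 in 9. The third lung had 23.01 CPM of Fbp1, against 0.429 and 0.651 CPM, and the part of tubule RNA was not tested.

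Slc2a2 had 104 ± 4.03 RPKM in liver, 36.8 ± 0.727 in kidney, 7.14 ± 3.72 in heart and 0.230 ± 0.299 in lung. Its liver and kidney libraries did not overlap (578 to 624 CPM in liver and 209 to 217 CPM in kidney), yet edgeR did not call the difference (adjusted p = 0.341) with the spread it estimated over all 68 libraries. Kidney and heart were not called as different for Slc2a2 either (edgeR adjusted p = 0.124), though heart had only 20.2 to 63.0 CPM. Pklr followed the order liver (85.4 ± 12.5), kidney (11.9 ± 1.10), heart (4.66 ± 3.28) and lung (0.214 ± 0.139), of which kidney and heart were not called as different (edgeR adjusted p = 0.286). The kidney (35.6 to 42.5 CPM) and heart (3.39 to 24.1 CPM) values of Pklr did not overlap either. Pfkfb1 had 5.38 ± 1.36 RPKM in liver, 1.37 ± 0.863 in heart, 0.159 ± 0.0579 in lung and 0.149 ± 0.0223 in kidney, and lung and kidney were not called as different.

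The other 3 genes had another order. Pfkfb3 was highest in lung (9.02 ± 2.86 RPKM), and kidney (2.81 ± 0.732), heart (2.19 ± 1.42) and liver (1.70 ± 0.246) followed with no called difference between neighbours. Ppargc1a was high in kidney (9.44 ± 0.925 RPKM) and heart (8.12 ± 0.146), not called as different, and lower in liver (1.27 ± 0.453) and lung (0.633 ± 0.0705). Its kidney values (56.3 to 68.5 CPM) all lay above its heart values (52.9 to 54.6 CPM). Untreated kidney thus exceeded untreated liver in Ppargc1a, with a liver minus kidney difference of -2.89 ± 0.24 (edgeR adjusted p = 1.66e-15). Foxo1 was even in lung (5.76 ± 0.251 RPKM), kidney (5.60 ± 0.770) and liver (5.60 ± 0.757), with no called difference among these, and lower in heart (3.17 ± 0.369).

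**Figure D5:**
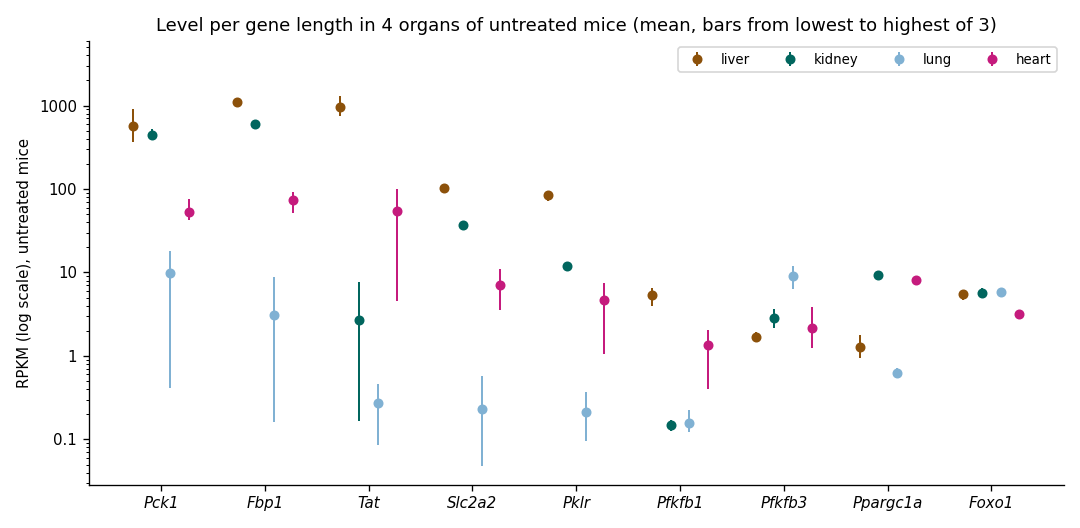
Level of each gene per kilobase of its length (RPKM, log scale) in liver, kidney, lung and heart of untreated mice, with the mean of 3 libraries as a point and bars from the lowest to the highest. Fbp1, Slc2a2 and Pklr are highest in liver and next in kidney. Pck1 is highest in liver and kidney, whose bars overlap, Ppargc1a is highest in kidney and heart, and Pfkfb3 in lung.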

How the data were processed

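Unnormalised gene-level counts of 68 polyA RNA libraries were used as the authors deposited them. The kits were non-directional, so reads of overlapping or antisense genes cannot be told apart. Per the submitters' processing notes, HISAT2 2.0.5, featureCounts 1.5.0-p3 and the mm39 build were used. The table also gives each gene's length, as the authors deposited it, which was used for RPKM. Each organ was fitted on its own with edgeR 4.0.16 (limma 3.58.1, R 4.3.3): filterByExpr on its 5 groups, TMM scaling and a robust quasi-likelihood F test, adjusted by Benjamini-Hochberg. A fit of all 68 libraries tested differences among organs. DESeq2 1.42.0 and limma voom were alternatives. On simulated data only the edgeR test of Egf against vehicle at 2 h was tried, in each organ. Groups came from the labels. No 2 libraries were duplicates, and replicate numbers were a block in an alternative only. Every same-numbered pair had correlated deviations (over 0.1) in 3 of 46 sets of pairs: vehicle at 6 h and untreated in lung (0.112 to 0.389) and in heart (0.295 to 0.614), and lung and heart in vehicle at 6 h (0.102 to 0.113). The labels do not state a pairing. The 9 genes, the 137 listed genes and the marker lists were chosen with earlier results of these data known. From each list, called genes were named, at most 4 per comparison by smallest p, and G6pc in liver was added after its values were seen.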

Additional observations from a re-analysis of the deposited data

Results flagged for a closer look

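In groups of 4 libraries, a value was singled out when its gap to the nearest other value was a larger share of the whole range than Dixon's limit at 95% allows, which about 1 group in 20 passes by chance. Of 72 groups (9 genes, 4 organs, both Egf times) 12 passed, 11 of them in lung or heart. The third Egf lung at 6 h was the highest of its group for Pck1 (527 CPM), Fbp1 (161 CPM), Tat (267 CPM), Pklr (47.9 CPM) and Slc2a2 (118 CPM). The third Egf heart at 2 h was the highest for Fbp1 (75.6 CPM), Tat (86.8 CPM), Pklr (13.4 CPM) and Slc2a2 (42.3 CPM), beside a hepatocyte marker sum of 10135 CPM, against 1125, 210.1 and 84.2 CPM in the other 3. The first Egf kidney at 6 h was the highest for Tat (5.13 CPM). Foxo1 had low values, 59.4 CPM in the fourth Egf lung at 2 h and 66.5 CPM in the second Egf lung at 6 h.

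The Egf effect in liver differed between times by a test of the difference itself for Pck1 (2.48 ± 0.45), Tat (2.01 ± 0.31) and Ppargc1a (2.32 ± 0.39), as 6 h minus 2 h on the log2 scale with SE. Between organs at 2 h it differed for Ppargc1a, by -1.56 ± 0.31 for liver minus kidney, -1.84 ± 0.32 for liver minus lung and -2.33 ± 0.31 for liver minus heart.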

How the results depend on the processing

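Of 163 counts of called genes under another setting, 149 stayed within 1.5 times the count reported. In every kidney, lung and heart comparison the count reported was 0, so staying within the limit there means staying at 0. Limma voom called 1 gene for vehicle against untreated livers at 2 h and 2 at 6 h, where DESeq2 called 2 and a fit with no filter on low counts 1. Of all 13592 genes limma voom called 541 at 2 h and 734 at 6 h, against 21 and 91 by edgeR. At 6 h DESeq2 called 285 of them, and the fit with no filter called 108 of 23867. For Egf at 6 h against untreated livers, the fit of only the compared groups called 0. There 168 of all 13073 genes were called, against 529 of 13592 in the fit of all liver groups. In kidney, vehicle against untreated gave 1 at 2 h by DESeq2 and 3 by limma voom, and 3 at 6 h by limma voom (Pck1, Fbp1 and Pfkfb3). Of all 15654 genes DESeq2 called 146 and limma voom 2843 at 2 h, against 4 by edgeR. At 6 h limma voom called 1371 of them, against 33 by edgeR. Egf at 2 h against untreated kidneys gave 2 by DESeq2 (Tat and Slc2a2) and 1 by limma voom, while 1074 and 1184 of all 15654 genes were called, against 595 by edgeR. The Tat value there rested on the first untreated kidney, with 21.6 CPM of Tat and a hepatocyte marker sum of 1968 CPM: the log2 change was -0.89 without it, -4.73 with all, and -5.77 to -0.89 over all libraries left out in turn. DESeq2 called 1 for vehicle against untreated hearts at 2 h, where it called 526 of all 15618 genes, against 2 by edgeR. Among organs at 2 h DESeq2 called 2, limma voom 3 and the fit of liver and kidney alone 2, where 789, 1002 and 213 of all genes were called, against 411 by edgeR (of 18736 genes, and of 16337 for liver and kidney alone). That fit and the proximal tubule covariate were chosen after seeing the data. The cause of these changes was not tested.

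Leaving out 1 library gave 3 to 4 called genes for Egf against vehicle livers at 2 h and for Egf at 2 h against untreated livers. It gave 0 to 1 for vehicle at 6 h (1 without the third vehicle liver, Pfkfb1, edgeR adjusted p = 0.0448) and for Egf at 6 h against untreated livers, and 0 to 1 for Egf at 2 h against untreated kidneys (1 without the second Egf kidney, Ppargc1a, 0.0477). The change of Pck1 in vehicle kidneys at 2 h against untreated kidneys was -0.0922 without the third vehicle kidney and 0.51 without the second, against 0.19 ± 0.27 with all. Leaving out lung and heart libraries was not run in the fit of all 68.

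Same-numbered libraries deviated together (correlation over 0.1) in 3 of 12 pairs in liver, 3 of 12 in kidney, 6 of 12 in lung, 6 of 12 in heart and 25 of 102 pairs between organs. With the number as a replicate block, Pck1 in liver at 2 h had -2.43, the same 4 genes were called, and 764 of all genes were called, against 533 without it. The block changed no count of called genes among the 9.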
